A study of Mus musculus with 289 samples.

Results

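Polycomb repressive complex 2 (PRC2) places methyl groups on lysine 27 of histone H3, a mark that holds genes in a repressed state. Its catalytic subunit is Ezh2 or the related Ezh1, which works only in a core with Eed, the reader of the finished mark, and Suz12, the scaffold. The histone-binding proteins Rbbp4 and Rbbp7 join this core, and Mtf2, Phf19, Aebp2 and Jarid2 are accessory subunits that help to bring it to chromatin. In epidermis Ezh2 is known as the form of dividing progenitors and Ezh1 as a form that persists in resting and differentiating cells. PRT4165, the compound tested here, is known as an inhibitor of Ring1 and Rnf2, the ubiquitin ligases of the sister complex PRC1, and not of PRC2 itself. The comparison of PRT4165 with vehicle therefore asks how the messages of PRC2 stood in epidermal cells whose partner complex was targeted, and the comparison with Mki67 and Top2a, a nuclear protein and a topoisomerase of dividing cells, asks how they stood in the cell cycle.

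The 10 genes were taken by name: Ezh1, Ezh2, Eed, Suz12, Jarid2, Mtf2, Phf19, Aebp2, Rbbp4 and Rbbp7. All 10 were rows of the deposited table of 15019 genes. The cells came from tail skin of female mice of a mixed CBA and C57BL/6 strain that carried Lrig1-EGFP-ires-CreERT2 together with Rosa26-fl/STOP/fl-tdTomato, so that 1 topical dose of 4-hydroxytamoxifen at 6 to 8 weeks of age marked Lrig1-expressing cells, stem cells of the upper hair follicle, and their progeny with tomato. PRT4165 at 3 mg/ml, or the acetone vehicle, was then put on the skin on days 7, 9 and 11, and tomato-positive keratinocytes were sorted 6 h after the last dose. Each library was 1 cell, and the cells lay on 4 plates, 2 of vehicle and 2 of PRT4165, which were the replicates. Cells labelled AC were taken as the vehicle cells, since PRT4165 and vehicle are the only arms named. A further code in the labels, PR9 for vehicle and PR12 for PRT4165, has no stated meaning, and whatever it marks cannot be told apart from treatment. The study describes 2 independent experiments with 4 biological replicates in each, and neither the labels nor the methods say which cell or plate came from which animal.

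Of 289 cells, 274 were kept, 55 to 77 per plate, with summed counts of 25761756 to 41592716 per plate. Vehicle replicate 1 was the shallowest plate, with a median of 141985 counts per cell against 429383 to 538754 on the other plates. The label of keratinocyte was checked against its markers: Krt14 had a count in 93.1% of cells and Krt5 in 73.7%, and Lrig1 itself in 35.4%. The fibroblast markers summed to 7.28 to 84.3 CPM (counts in every 1000000 counts of the plate) and the 1 immune marker in the table, Ptprc, to 0.078 to 1.11 CPM. Of the endothelial markers 2 of 4 were in the table, Vwf in 5.84% of cells and Pecam1 in 100% of them, and for vehicle their sum was 490.9 and 460.9 CPM, for PRT4165 it was 210.5 and 609 CPM.

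Rbbp7 and Ezh2 led the 10 genes, and Phf19 was nearly absent. Rbbp7 had a count in 67.2% of the 274 cells, Ezh2 in 55.1%, Rbbp4 in 45.6% and Aebp2 in 44.5%. Suz12 was found in 32.8% of cells, Jarid2 in 27%, Mtf2 in 26.3%, Eed in 25.5% and Ezh1 in 24.1%. Per kilobase of the longest coding transcript, the mean level over the 4 plates was 96.9 CPM per kb for Rbbp7 (SD 37) and 27.1 for Ezh2 (SD 16.4). Eed (13.7, SD 7.79) and Mtf2 (13.1, SD 10.7) followed, then Suz12 (8.57, SD 3.57), Aebp2 (7.27, SD 4.11), Rbbp4 (7.12, SD 5.21), Jarid2 (2.46, SD 0.965) and Ezh1 (2.27, SD 1.79). Apart from the step from Rbbp7 to Ezh2, neighbours in this order differed by less than the larger of their SDs. The median cell held 3 of the 10 genes, the richest cell 9, and 19 cells held none.

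Phf19 had 2 counts in 1 cell, on PRT4165 replicate 1. It was listed at 0 in the 70, 55 and 77 cells of the other plates, which allows a share of cells with a count of up to 4.29%, 5.45% and 3.9%. This limits detection, not the share of cells that express the gene. It did not pass the filter on low counts, so 9 of the 10 genes were tested.

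**Figure D1:**
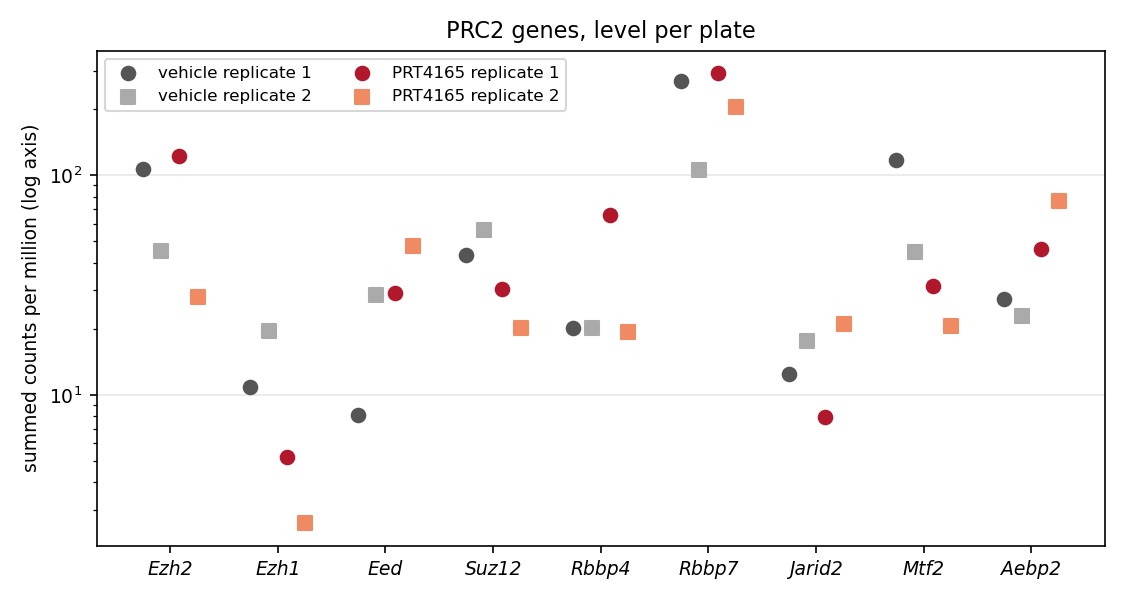
Level of the 9 tested PRC2 genes on each plate, as CPM of the summed counts on a log axis, with grey marks for the vehicle plates and red or orange marks for the PRT4165 plates. Ezh1, Suz12 and Mtf2 lie lower on both PRT4165 plates than on both vehicle plates, Eed and Aebp2 lie higher, and the other 4 genes overlap.

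Ezh2 (chr6:47530139-47595341, minus strand, GRCm38) was at 106.8 and 45.1 CPM on vehicle and at 121.8 and 28 CPM on PRT4165. Both the highest and the lowest value belonged to PRT4165, so the groups overlapped. Its levels rested on few cells: on vehicle replicate 1 a single cell gave 60.9% of all Ezh2 counts, and without it that plate stood at 43.6 CPM. Ezh1 (chr11:101191115-101226463, minus strand) was far lower and ordered by treatment, at 10.8 and 19.6 CPM on vehicle against 5.23 and 2.6 CPM on PRT4165.

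The start regions of these alternative catalytic subunits differ in sequence, and they are shown with those of Suz12 and Phf19 because these 3 genes, Ezh2, Suz12 and Phf19, hold a word of the kind bound by E2F factors, the regulators of S-phase genes. The words searched on both strands were TTTCCCGC, TTTCGCGC, TTTGCCGC and TTTGGCGC, which were found in 2.26% of 32851 RefSeq promoters (GRCm38.p6), each 250 bases before and 50 from the start on, and CCAAT, the box bound by NF-Y, found in 37.4% of them. All 10 genes had at least 1 entry, 14 in all, and no match of 1 motif overlapped a match of the other. CCAAT was in at least 1 entry of 8 genes, a count by gene, while the 37.4% counts single promoters. Mtf2 and Aebp2 held it in only 1 of their entries each. Each line gives 250 bases before the RefSeq start and 20 from the start on, 5′ to 3′ on the gene's strand, with matches in capitals.
Ezh2, chr6:47595011-47595280, minus strand: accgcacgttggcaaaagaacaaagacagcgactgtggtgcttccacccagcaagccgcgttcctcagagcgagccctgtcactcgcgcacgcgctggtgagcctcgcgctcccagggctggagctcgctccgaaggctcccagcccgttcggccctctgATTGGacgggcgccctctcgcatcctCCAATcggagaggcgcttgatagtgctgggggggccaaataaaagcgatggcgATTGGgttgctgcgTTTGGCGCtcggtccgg
Ezh1, chr11:101226444-101226713, minus strand: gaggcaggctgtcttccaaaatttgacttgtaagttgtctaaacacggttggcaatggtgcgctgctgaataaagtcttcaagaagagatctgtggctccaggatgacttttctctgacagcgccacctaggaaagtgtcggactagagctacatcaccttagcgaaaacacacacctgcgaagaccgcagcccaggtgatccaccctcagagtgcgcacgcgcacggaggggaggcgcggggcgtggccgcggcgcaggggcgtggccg
Suz12, chr11:79992856-79993125, plus strand: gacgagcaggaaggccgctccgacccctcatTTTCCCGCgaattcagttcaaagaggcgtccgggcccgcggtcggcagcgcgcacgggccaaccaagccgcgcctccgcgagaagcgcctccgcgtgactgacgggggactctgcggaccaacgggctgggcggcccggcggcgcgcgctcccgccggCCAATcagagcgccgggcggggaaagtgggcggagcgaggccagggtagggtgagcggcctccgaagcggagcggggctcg
Phf19, chr2:34913957-34914226, minus strand: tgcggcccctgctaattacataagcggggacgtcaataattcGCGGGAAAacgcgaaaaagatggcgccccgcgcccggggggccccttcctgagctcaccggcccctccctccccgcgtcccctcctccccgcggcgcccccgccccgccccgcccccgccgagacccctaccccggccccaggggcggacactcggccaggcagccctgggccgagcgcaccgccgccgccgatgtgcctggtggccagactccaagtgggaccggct
Ezh2 had an E2F word 3 bases past its start and 3 CCAAT boxes before it, and Ezh1 had neither motif in the same window. These matches describe letters only.

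Of the remaining core, Eed (chr7:89954654-89980983, minus strand) was at 8.07 and 28.5 CPM on vehicle and at 29.1 and 47.5 CPM on PRT4165. The groups did not overlap, but 28.5 and 29.1 CPM nearly touched. Without the top cell of each plate, Eed stood at 5.52 and 20.3 CPM against 19.2 and 34.4 CPM, so the groups overlapped. Suz12 (chr11:79993106-80034123, plus strand) was at 43.2 and 56.1 CPM on vehicle and at 30.3 and 20.1 CPM on PRT4165. In the full sums these 2 partners of the same core were thus ordered in opposite ways. Without top cells Suz12 stood at 33.9 and 41.2 CPM against 23.8 and 14.3 CPM, still without overlap.

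Among the histone-binding proteins, Rbbp7 (chrX:162760402-162779092, plus strand) was at 268.5 and 106.2 CPM on vehicle and at 291.5 and 203.6 CPM on PRT4165. Rbbp4 (chr4:129307100-129335370, minus strand) was at 20.2 CPM on both vehicle plates and at 65.8 and 19.4 CPM on PRT4165. Both genes overlapped between treatments, and the high Rbbp4 value was 40.4 CPM without the cell that gave 40.6% of its counts. The level of Rbbp4 is uncertain in a further way, since 31.4% of the 75-base windows of its longest transcript also occur in Gm26722 or Sync, against 0% to 9.54% for the other genes.

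The accessory subunits were split. Aebp2 (chr6:140622663-140678472, plus strand), a zinc finger protein of PRC2, was at 27.3 and 22.8 CPM on vehicle and at 46.1 and 76.4 CPM on PRT4165, without overlap. Mtf2 (chr5:108065674-108109004, plus strand), a Polycomb-like protein, was at 117 and 44.6 CPM on vehicle and at 31.4 and 20.6 CPM on PRT4165. The 117 CPM came almost wholly from 1 cell, which gave 89.1% of the counts, and without it the plate stood at 14 CPM. Without their own top cells, vehicle replicate 2 stood at 30.5 CPM and the PRT4165 plates at 18.5 and 13.5 CPM, so the groups overlapped. Jarid2 (chr13:44729474-44921643, plus strand), a demethylase relative without activity, was at 12.4 and 17.5 CPM on vehicle and at 7.88 and 21.1 CPM on PRT4165, with overlap.

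None of these orders passed the test of treatment. With edgeR's quasi-likelihood test on plate sums, 0 of 12791 genes were called at an adjusted p of 0.05 (0%), 630 (4.93%) had an unadjusted p under that value, and all 9 PRC2 genes had an adjusted p of 0.997. The estimated log2 differences, PRT4165 minus vehicle, were -1.91 for Ezh1 (SE 0.91), -1.68 for Mtf2 (SE 0.72), -0.94 for Suz12 (SE 0.63), 1.32 for Aebp2 (SE 0.65) and 1.19 for Eed (SE 0.79). For the genes that overlapped they were 1.07 for Rbbp4 (SE 0.76), 0.36 for Rbbp7 (SE 0.61), 0.03 for Jarid2 (SE 0.84) and -0.08 for Ezh2 (SE 0.80). The median of the 9 was 0.03, against -0.02 over all genes tested. DESeq2 called 104 genes higher and 70 lower (1.36% together) and limma on per-cell means 19 genes (0.149%), and neither called a PRC2 gene, the smallest adjusted p among them being 0.397 and 0.288. Plates without overlap in CPM were found for 5 of the 9 genes against 31.7% of all genes tested, and with 2 plates against 2 an exact permutation test cannot go below 0.333. Of these 5 genes, Eed and Mtf2 overlapped once the top cell of each plate was left out.

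Counted by cells, more PRC2 genes were ordered one way. A count of Ezh2 was present in 44.3% and 52.7% of vehicle cells and in 58.3% and 63.6% of PRT4165 cells. Rbbp7 was present in 55.7% and 60% against 72.2% and 77.9%, and Eed in 14.3% and 23.6% against 27.8% and 35.1%. Aebp2, Rbbp4 and Mtf2 were likewise higher on both PRT4165 plates, which makes 6 of 9 genes, while 31.9% of all genes tested were ordered in that direction, and each of the 6 had the smallest p the exact two-sided permutation test allows, 0.333. The vehicle group held the shallowest plate, and depth could not be told apart from treatment in these raw shares. Cells were then thinned to 50000 counts from genes that are not mitochondrial, which left out the shallower cells and kept 59 of 70 and 54 of 55 on vehicle and 61 of 72 and 72 of 77 on PRT4165. In these cells the shares of Ezh2 were 39% and 37% against 50.8% and 45.8%, and those of Rbbp7 59.3% and 57.4% against 77% and 75%, still without overlap. Eed (11.9% and 16.7% against 23% and 29.2%) and Rbbp4 (28.8% and 24.1% against 44.3% and 30.6%) also stayed without overlap. For Mtf2 and Aebp2 the thinned shares overlapped. The share of all genes without overlap after thinning was not computed. The shares of Ezh1 overlapped in all kept cells, at 25.7% and 32.7% on vehicle and 26.4% and 14.3% on PRT4165. In thinned cells they were lower on PRT4165, at 13.1% and 6.94% against 23.7% and 20.4%. Thinned shares of Jarid2 were lower on PRT4165 too, at 18% and 18.1% against 22% and 27.8%.

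**Figure D2:**
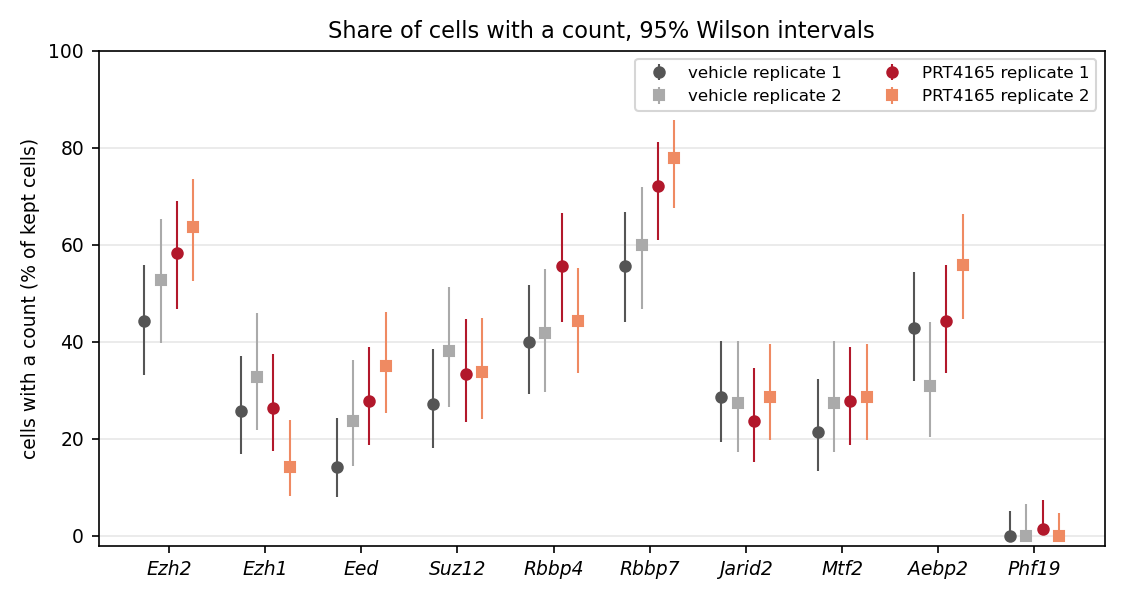
Share of kept cells with a count of each of the 10 PRC2 genes on each plate, in percent, with 95% Wilson intervals that cover counting error only. Rbbp7 and Ezh2 stand highest, and the shares of Ezh2, from 44.3% to 63.6%, lie higher on both PRT4165 plates than on both vehicle plates, with intervals that overlap.

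The balance of the 2 catalytic subunits was therefore looked at directly. On vehicle the log2 ratio of Ezh2 to Ezh1 counts was 3.31 and 1.20, on PRT4165 it was 4.54 and 3.43, a difference of 1.73 (exact two-sided permutation test, p = 0.333, the smallest possible). As a difference of per-cell means of log2(CPM + 1) it was 1.27 and 1.05 on vehicle and 2.70 and 2.66 on PRT4165 (p = 0.333, same exact test). Most cells that held either gene held Ezh2 alone: 106 cells had Ezh2 without Ezh1, 21 had Ezh1 without Ezh2, 45 had both and 102 had neither. Cells with Ezh1 alone were 12.9% and 10.9% of the vehicle plates and 5.56% and 2.6% of the PRT4165 plates. These are raw shares, in which depth could not be told apart from treatment, and they were not computed in thinned cells.

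**Figure D3:**
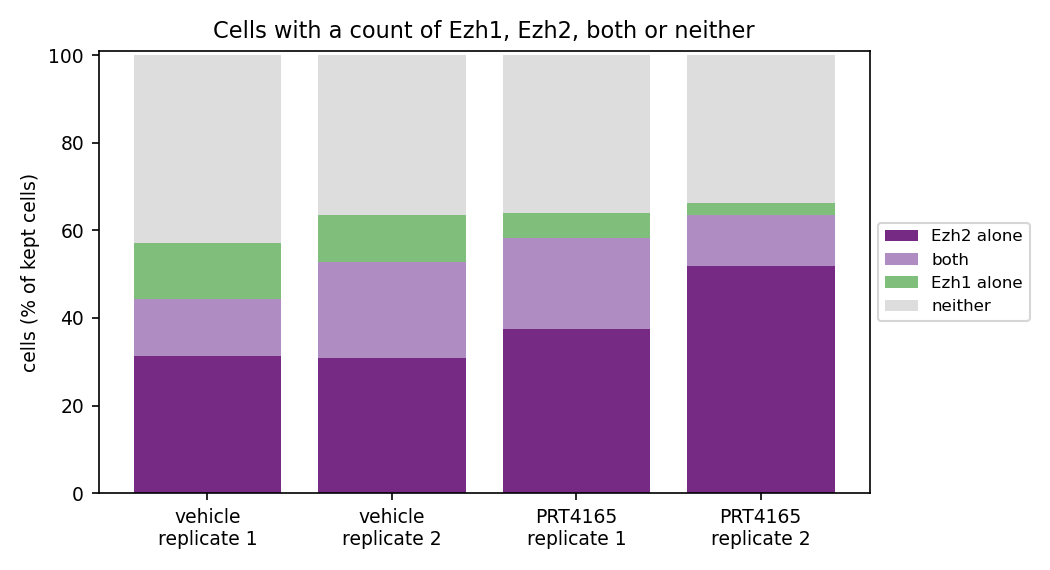
Stacked bars of the share of kept cells on each plate, in percent, with a count of Ezh2 alone, of both Ezh2 and Ezh1, of Ezh1 alone, or of neither. Ezh2 alone takes 31.4% and 30.9% of the vehicle plates and 37.5% and 51.9% of the PRT4165 plates, and neither takes 33.8% to 42.9%.

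A catalytic subunit, Eed and Suz12 were found together in 32 of 274 cells (11.7%). By plate the share was 7.14% and 12.7% on vehicle and 13.9% and 13% on PRT4165. Within plates, the correlation across cells was highest for the pair Eed and Suz12 among those of the core, with Spearman's rho of 0.32, 0.28, 0.41 and 0.18 on the 4 plates, while Ezh2 with Eed gave 0.28, 0.25, 0.07 and 0.11. These are descriptions over the 55 to 77 cells of a plate, and each of the 9 genes also had a mean rho of 0.27 to 0.37 with the number of genes detected in a cell.

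Cells with at least 10 CPM of Mki67 and Top2a together were compared with all other cells of the same plate. There were 57, made up of 10 cells on each vehicle plate and of 19 and 18 cells for PRT4165, or 14.3%, 18.2%, 26.4% and 23.4% of each plate. Both vehicle shares were below both PRT4165 shares, an order of 2 plates against 2 that was not tested. A count of Top2a was ordered alike, in 10% and 12.7% of vehicle cells and 29.2% and 32.5% of PRT4165 cells. The shares of Mki67 overlapped, at 8.57% and 18.2% against 22.2% and 14.3%. The part of this class in the treatment values was not tested beyond leaving its cells out. That gave log2 differences of -2.18 for Ezh1 and 1.52 for Aebp2 and called 0 genes.

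Of the 9 genes, Ezh2 had the largest difference in per-cell means between the classes. A count of Ezh2 was present in 80%, 70%, 89.5% and 66.7% of the Mki67/Top2a cells of vehicle replicates 1 and 2 and PRT4165 replicates 1 and 2, against 38.3%, 48.9%, 47.2% and 62.7% of the other cells. Its mean log2(CPM + 1) per cell was 5.14, 4.32, 6.58 and 3.48 in the class and 2.18, 2.21, 2.52 and 2.97 outside it. In these means the class was higher on each of the 4 plates, but on PRT4165 replicate 2 by 0.50 only. The summed Ezh2 levels were 98.8, 121.5, 249.6 and 43.2 CPM in the class. In other cells they were 107.4, 20.6, 80.4 and 23.7 CPM, so on vehicle replicate 1 the class was lower. Ezh1 did not share the order of the Ezh2 means, with mean log2 differences of 0.56, -0.85, 0.68 and 0.37.

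**Figure D4:**
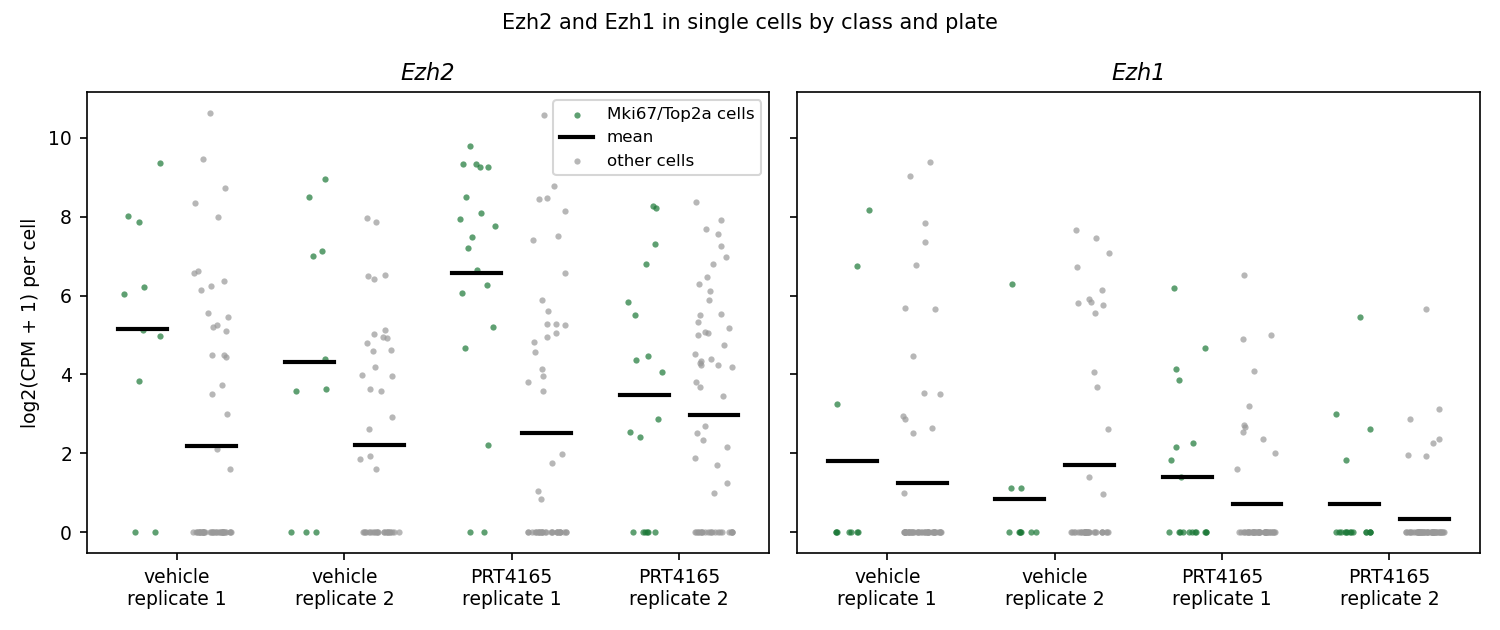
Ezh2 and Ezh1 in each kept cell as log2(CPM + 1), by plate, with Mki67/Top2a cells in green, other cells in grey and the class mean as a black bar. For Ezh2 the green mean lies above the grey mean on all 4 plates, by 2.96, 2.11, 4.06 and 0.50, and for Ezh1 most cells of both classes lie at 0.

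The histone-binding proteins were ordered like Ezh2. Rbbp7 had mean log2 differences of 3.24, 1.20, 1.97 and 1.08 between the classes, and Rbbp4 of 1.48, 0.93, 2.35 and 0.93, all in favour of the Mki67/Top2a cells. Aebp2 was higher on the 4 plates too, by 0.89, 2.17, 0.31 and 0.12. These 4 of 9 genes compare with 24.8% of all genes tested that were higher in the class on all 4 plates. Eed was higher by 1.54, 1.96 and 1.49 on 3 plates and differed by -0.18 on PRT4165 replicate 2, where Suz12 also turned, with 0.39, 1.21, 2.07 and -0.09. Mtf2 and Jarid2 were higher on 2 plates and lower on 2.

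The tests of this comparison depended on the measure. With edgeR on the counts summed per plate and class and plate as a block, 20 of 11042 genes were called (0.181%) and no PRC2 gene was among them. The log2 difference was 1.0 for Ezh2 (SE 0.62, adjusted p = 0.715) and 1.21 for Eed (SE 0.59, adjusted p = 0.6), and from -1.0 for Jarid2 to 0.43 for Aebp2 among the other 7. With limma on the per-cell means, 1057 genes were called (9.57%), 938 of them higher (8.49%), and 3 PRC2 genes were among the latter: Ezh2 (2.41, SE 0.50, adjusted p = 0.00076), Rbbp7 (1.87, SE 0.48, adjusted p = 0.00632) and Rbbp4 (1.42, SE 0.45, adjusted p = 0.0338). In the summed counts Rbbp4 had the opposite sign and Rbbp7 was near 0, with edgeR estimates of -0.14 (SE 0.59) and 0.05 (SE 0.34). The summed Rbbp4 levels were 19.9, 22.8, 69.4 and 20.4 CPM in the class and 20.2, 19.3, 64.6 and 19 CPM in other cells. Eed missed the threshold in the limma fit at 1.20 (SE 0.42, adjusted p = 0.0571), as did Suz12 at 0.89, Aebp2 at 0.87, Mtf2 at 0.60, Ezh1 at 0.19 and Jarid2 at 0.17. The median over all genes tested was 0.27 on this scale, and the class held more genes per cell, with plate medians of 3452 to 4325 against 3066 to 3903 in other cells; the part of this in the calls was not tested beyond thinning. In limma on thinned cells Ezh2 (2.34, adjusted p = 0.00461) and Rbbp7 (1.70, adjusted p = 0.0477) were called and Rbbp4 was not (1.19, adjusted p = 0.181), with 6.11% of genes called. Among Krt5/Krt14 cells alone the limma values were 2.19 for Ezh2 (adjusted p = 0.0138), 2.20 for Rbbp7 (adjusted p = 0.0064) and 1.45 for Rbbp4 (adjusted p = 0.0783), with 5.62% of genes called. Without PRT4165 replicate 1 the limma difference of Ezh2 was 1.86 with an adjusted p of 0.0793, and no PRC2 gene was called.

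**Figure D5:**
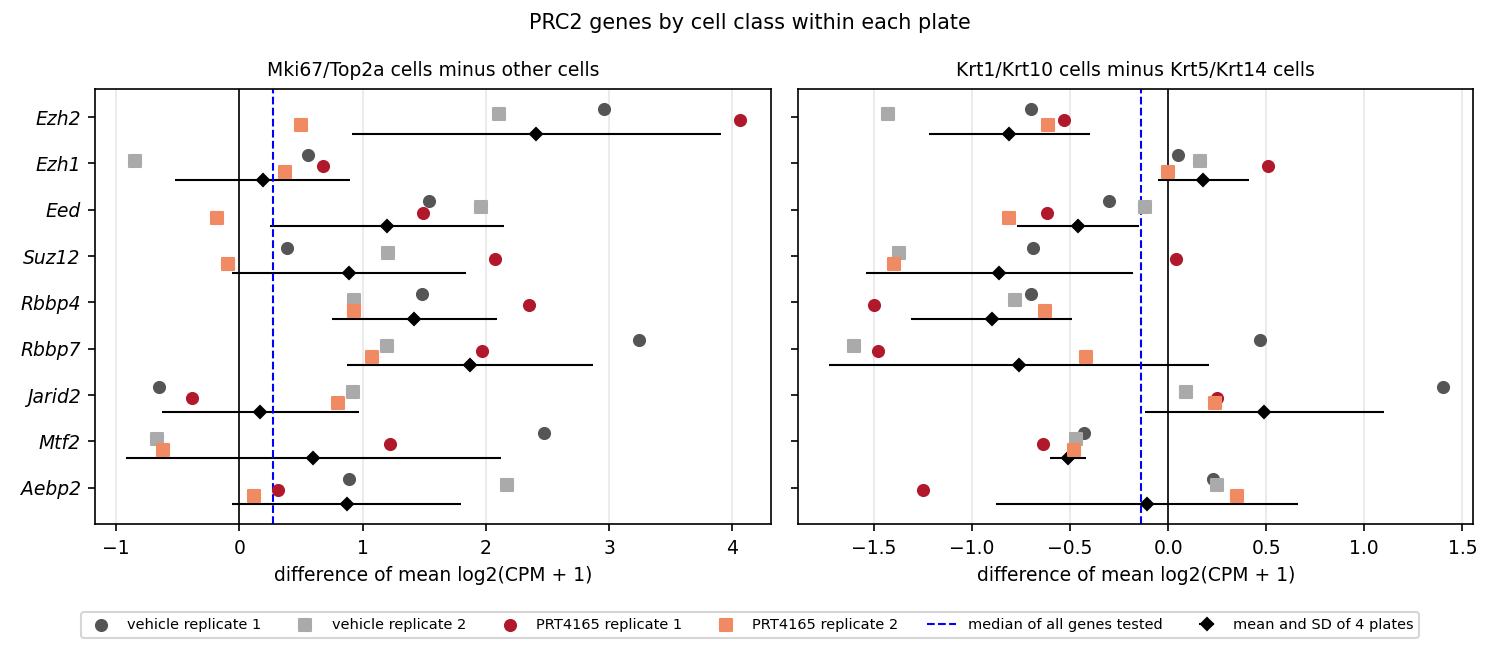
Difference of mean log2(CPM + 1) between cell classes for the 9 tested PRC2 genes, 1 mark per plate, with the mean and SD of 4 plates as a black diamond and bar and the median of all genes tested as a dashed line. On the left (Mki67/Top2a cells minus other cells) Ezh2 averages 2.41 and Rbbp7 1.87, against a median of 0.27; on the right (Krt1/Krt10 cells minus Krt5/Krt14 cells) Ezh2, Eed, Mtf2 and Rbbp4 lie below 0 on every plate.

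The lists of cell cycle genes give the scale of these values. In edgeR 7 of 23 G2 and M phase genes tested were higher in the Mki67/Top2a cells, among them Cenpe, a kinesin of the kinetochore (log2 difference 10.37, SE 0.92, adjusted p = 0.00669), Ccna2, a mitotic cyclin (8.59, SE 1.01, adjusted p = 0.0274), Ube2c, Birc5 and Hmgb2. None of 24 S phase genes was called in edgeR, where their median was 1.90 against -0.24 over all genes. In limma 22 of 24 S phase genes and 23 of 23 G2 and M phase genes were higher, for example Uhrf1, a reader of replicating DNA, by 3.43 (SE 0.43, adjusted p = 1.33e-07) and Pcna, the replication clamp, by 2.41 (SE 0.43, adjusted p = 0.000107). The value of Ezh2, 2.41, was thus that of Pcna on the scale of per-cell means. Between treatments 23 of 24 S phase genes had a positive edgeR estimate, with a median of 1.14 against -0.02 over all genes, and none was called.

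The difference of the class effect between treatments was tested as an interaction in edgeR. It called 0 of 11042 genes (0%), with 365 at an unadjusted p under 0.05, and the PRC2 estimates lay between -0.91 for Mtf2 and 1.57 for Ezh1, each with an adjusted p of 1. For Ezh2 it was 0.05 (SE 1.36).

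The ratio of Ezh2 to Ezh1 also differed between the classes in the per-cell means. Their difference was 3.33, 3.46, 5.19 and 2.76 in the Mki67/Top2a cells of the 4 plates and 0.93, 0.51, 1.81 and 2.63 in other cells, a mean gap of 2.21 that was higher on 4 of 4 plates (exact two-sided sign-flip test, p = 0.125, the smallest that 4 plates allow). With summed counts the gap was 1.17, higher on 2 of 4 plates (exact test, p = 0.75). The core of a catalytic subunit, Eed and Suz12 was found in 30%, 30%, 36.8% and 16.7% of the Mki67/Top2a cells against 3.33%, 8.89%, 5.66% and 11.9% of the other cells, with 3 to 7 such cells in the class on each plate. The class also had a higher median of genes per cell on each plate, and the part of this in the core shares was not tested.

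Across the cells of a plate, Ezh2 correlated with Mki67 at Spearman's rho of 0.30, 0.29, 0.52 and 0.22 and with Top2a at 0.20, 0.39, 0.42 and 0.08. The 5 genes of 6232 whose levels across cells were most like those of Ezh2, by mean rho over the 4 plates, were Spidr (0.35), Tk1 (0.34), Cenph (0.34), Cbx5 (0.33) and Dut (0.33). The median gene had a mean rho of 0.08, and the 95th percentile was 0.20. Tk1 and Dut make and protect thymidine nucleotides, Cenph is a kinetochore protein, Cbx5 a heterochromatin protein and Spidr a protein of DNA repair. Top2a ranked 44 (0.27), while the other tested PRC2 genes ranked lower, among them Ezh1 at 554 (0.18), Eed at 589 (0.18), Suz12 at 1162 (0.15) and Rbbp7 at 1576 (0.13). Depth and the number of genes per cell are shared by all these values, and no test was made.

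Differentiation was followed by the keratins: 89 cells had more Krt1 and Krt10, the keratins of suprabasal cells, than Krt5 and Krt14, those of basal cells, and the remaining cells had less. Of the 57 Mki67/Top2a cells only 7 were in the Krt1/Krt10 class. Ezh2 had a lower mean log2(CPM + 1) in Krt1/Krt10 cells on each plate, by -0.70, -1.43, -0.53 and -0.61. Rbbp4 (-0.70, -0.78, -1.5 and -0.63), Eed (-0.30, -0.12, -0.62 and -0.81) and Mtf2 (-0.43, -0.47, -0.64 and -0.48) were also lower on 4 plates. These 4 of 9 genes stand beside 23.4% of all genes tested that were lower on all 4 plates. Suz12 was lower on 3 plates (-0.69, -1.37 and -1.40) and at 0.04 on PRT4165 replicate 1. Rbbp7 was likewise lower on 3 plates (-1.60, -1.48 and -0.42) and at 0.47 on vehicle replicate 1. Jarid2 was higher in Krt1/Krt10 cells on 4 plates, by 1.40, 0.09, 0.25 and 0.24. Its share of cells with a count was higher on 2 plates and lower on 2, with and without thinning. The share of all genes higher on 4 plates was not computed. Krt1/Krt10 cells were deeper on each plate, with median counts of 213761, 586797, 587777 and 691693 against 111660, 506827, 337358 and 477753. The part of depth in these values was not tested beyond thinning. Aebp2 was higher on 3 plates (0.23, 0.25 and 0.35) and at -1.25 on PRT4165 replicate 1, and Ezh1 stayed between -0.00 and 0.51.

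No PRC2 gene passed the test between the keratin classes. EdgeR called 37 of 11010 genes (0.336%), and the PRC2 estimates ran from -1.68 for Suz12 (SE 1.04, adjusted p = 0.542) to 0.86 for Mtf2 (SE 0.85, adjusted p = 0.728), with -0.63 for Ezh2 (SE 0.56, adjusted p = 0.693). Limma on per-cell means called 1467 genes (13.3%), and came nearest to the threshold for Rbbp4 (-0.90, adjusted p = 0.0796), Suz12 (-0.86, adjusted p = 0.0928) and Ezh2 (-0.81, adjusted p = 0.151). In limma on thinned cells Ezh2 was at -1.23 (adjusted p = 0.0552) and Suz12 at -1.10 (adjusted p = 0.0609), with 12.1% of genes called. Of the S phase genes limma called 14 of 23 lower in the Krt1/Krt10 cells, and likewise 14 of 23 G2 and M phase genes, against 8.31% of all genes, so fewer cycling cells accompanied the lower PRC2 values; the part of this in them was not tested.

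Cd34, a marker of the hair follicle bulge, reached 10 CPM in 27 cells, 8, 5, 7 and 7 per plate. Jarid2 was lower in these cells on 4 of 4 plates, by -0.67, -0.44, -0.71 and -1.22 in mean log2(CPM + 1), with 1 Cd34 cell per plate holding a count; 12.9% of all genes tested were lower on 4 plates. Rbbp7 was at 96.7 to 832 CPM in Cd34 cells and was higher there on 3 plates, by 1.25, 2.27 and 0.74, and at -0.42 on vehicle replicate 1. EdgeR called 28 of 10509 genes (0.266%) and no PRC2 gene, with estimates of -2.95 for Jarid2 (SE 1.77, adjusted p = 0.54) and 0.86 for Rbbp7 (SE 0.79, adjusted p = 0.725). The median over all genes was -1.14 in that fit, and the estimates of Ezh2 (-1.46), Suz12 (-2.25) and Eed (-2.35) lay above those of 44%, 31.7% and 30.2% of the genes.

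Genes that act against or beside PRC2 were read in the same fits. Kdm6a, a demethylase that removes the methyl mark of PRC2, was at 136.2 and 45.5 CPM on vehicle and at 42.9 and 25.2 CPM on PRT4165, with 71% of the first value from 1 cell. Its level was lower in Mki67/Top2a cells on 4 of 4 plates, by -0.48, -0.83, -0.61 and -0.64 in mean log2(CPM + 1), where Ezh2 was higher; 4.98% of all genes tested were lower on 4 plates. The edgeR estimate was -3.84 (SE 0.72, adjusted p = 0.1), which missed the threshold, as did limma on per-cell means at -0.64 (SE 0.37, adjusted p = 0.276), while DESeq2 called it at -3.79 (SE 0.64, adjusted p = 4.38e-07). DESeq2 called 895 of 11042 genes there, 598 of them lower. A count of Kdm6a was present in 20%, 20%, 26.3% and 22.2% of the Mki67/Top2a cells and in 25%, 28.9%, 26.4% and 30.5% of the other cells. Kdm6b, the related demethylase, was at 7.66 to 10.8 CPM on the 4 plates. Of 5 other PRC2 genes, 4 were tested for treatment and none was called. Of 22 PRC1 genes, all tested for treatment, none was called, with 12 estimates above 0 and a median of 0.11 against -0.02 over all genes. Rnf2 and Ring1, the named targets of PRT4165, had edgeR differences of -0.15 (SE 0.72) and -0.13 (SE 1.45) between treatments.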

How the data were processed

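Full-length single-cell RNA-seq (Smart-seq2, 25 cycles of amplification, single-end 75-base reads) was used. The authors quantified reads with Salmon 0.13.1 on the mouse transcriptome (GRCm38) and deposited their estimated counts, unscaled, as 1 table with gene symbols in rows and cells in columns. Of the values above 0, 18.3% were not whole, and all were rounded for count tests. All 289 columns matched a sample by title. Cells needed 1000 genes and at most 50% mitochondrial counts, which removed 15. No doublet caller was run, since 1 cell was sorted per well. The highest correlation between any 2 cells was 0.942.

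Counts were summed per plate, or per plate and class with at least 3 cells in each, filtered with filterByExpr, scaled by TMM and compared in edgeR 4.0.16 (quasi-likelihood F-test, R 4.3.3) with Benjamini-Hochberg adjustment over all genes and a threshold of 0.05. DESeq2 1.42.0 and limma-trend 3.58.1 on per-cell means of log2(CPM + 1) stood beside it. CPM was computed here from the counts. The standard error was the log2 difference over the square root of F. Thinned cells (50000 counts), Krt5/Krt14 cells alone and limma without each plate were added after the data were seen. Scripts were tested on simulated data. Mki67, Top2a, the 4 keratins and Cd34 define the classes and are no results. The cells of both classes of a plate share that plate.

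The treatment was tested without pairing, and a fit with the replicate number, a batch tag in the labels, as a block was an alternative. The deviations of same-numbered plates from their treatment means correlated at 0.08 over 6861 genes. The study describes 2 independent experiments of 4 biological replicates each but ties no cell to an animal. The spread between plates thus holds animals and technical steps that cannot be told apart. In edgeR, DESeq2 and limma the p-values for treatment rest on this spread drawn towards that of other genes. They do not rest on the plates of each gene alone. With plate as a block, the p-values of the class comparisons rest on how the class difference varied between plates, drawn in the same way. Without molecular identifiers, intervals and limits cover counting error only. Named genes were the 10 members; up to 5 genes of smallest p past the threshold from the lists of other PRC2, demethylase, PRC1, S phase and G2/M genes; and the 5 genes most like Ezh2 among those detected in 20% of cells. Kdm6a, Kdm6b, Rnf2 and Ring1 were named for their roles. Members and lists were chosen with earlier results of these data known. Transcript lengths, gene positions and shared windows came from GENCODE M21 on GRCm38, promoters from RefSeq.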

Additional observations from a re-analysis of the deposited data

Results flagged for a closer look

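Ezh1 and Rbbp4 were ordered in opposite ways in the Cd34 cells of the treatments. In mean log2(CPM + 1), Cd34 cells minus other cells, Ezh1 was at -1.09 and -0.22 on the vehicle plates and at 1.38 and 0.89 on the PRT4165 plates. Rbbp4 was at -1.18 and -0.56 on the vehicle plates and at 1.05 and 1.19 on the PRT4165 plates. Each value rests on 5 to 8 Cd34 cells. On vehicle replicates 1 and 2 and PRT4165 replicates 1 and 2, Ezh1 had a count in 1, 2, 3 and 2 of them and Rbbp4 in 1, 1, 6 and 5. Both genes were picked for this pattern of signs among the 10 genes in the Mki67/Top2a, keratin and Cd34 classes. The share of all genes with such a pattern was not computed, and the difference between treatments was not tested.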

How the results depend on the processing

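With 2 plates per treatment and sums that single cells can dominate, direction was stable only for some genes. Of 477 alternative values for PRC2 genes over 36 comparisons, 399 kept direction and side of the threshold. Another 12 passed it where edgeR did not, and 66 turned. The main edgeR fits called no PRC2 gene, so no value could lose the threshold. The cause of the turns was not tested. For treatment, Ezh1, Eed, Suz12, Aebp2 and Rbbp4 kept direction under every count-based alternative. The Rbbp4 estimate, 1.07 in the main fit, fell to 0.03 without PRT4165 replicate 1. With the replicate numbers as a block 0 genes were called, and Jarid2 was at -0.16.

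Counts of genes called for treatment were 104 higher and 70 lower with DESeq2 and 17 higher and 2 lower with limma on means. For Mki67/Top2a cells they were 56 without the low-count filter, 895 with DESeq2, 1057 with limma on means, 671 with limma on thinned cells, 83 without the plate block, 1 with any count of Mki67 or Top2a, 73 at 50 CPM, and 8 with edgeR or 561 with limma on Krt5/Krt14 cells. For Krt1/Krt10 cells they were 69 without the filter, 1578 with DESeq2, 1467 with limma on means, 1325 on thinned cells, 59 without the plate block and 59 without cells near the cut. For Cd34 cells they were 73 without the filter, 1361 with DESeq2, 72 with limma on means and 7 without the plate block. Leaving out 1 plate gave 2 to 17 (edgeR) or 313 to 929 (limma) for Mki67/Top2a cells, 1 to 17 for Krt1/Krt10 cells and 27 to 62 for Cd34 cells, and -0.12 to 1.96 for the class gap in the log2 ratio of Ezh2 to Ezh1, negative without vehicle replicate 2.

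Turned log2 values were, for treatment, with limma on means and on thinned cells, Ezh2 0.74 and 0.77, Jarid2 -0.27 and -0.41 and Mtf2 0.08 and 0.06; leaving out 1 plate gave -1.41 to 0.88 for Ezh2, -0.92 to 0.61 for Jarid2 and -0.23 to 1.39 for Rbbp7. For Mki67/Top2a cells, limma on means, on thinned cells and on Krt5/Krt14 cells gave Ezh1 0.19, 0.26 and 0.28, Jarid2 0.17, 0.22 and 0.29, Mtf2 0.60, 0.94 and 0.36 and Rbbp4 1.42, 1.19 and 1.45. EdgeR at 50 CPM gave Ezh1 0.46 and Rbbp4 0.17, on Krt5/Krt14 cells Ezh1 0.05 and Mtf2 0.71, with any count Mtf2 0.11, without the plate block Jarid2 0.11 and without the filter Rbbp7 -0.01. Leaving out 1 plate, over both tools, gave -0.50 to 0.59 for Ezh1, -1.94 to 0.45 for Jarid2, -1.28 to 1.02 for Mtf2 and -0.26 to 1.59 for Rbbp4. For Krt1/Krt10 cells, limma on means and on thinned cells gave Mtf2 -0.51 and -0.58 and Aebp2 -0.11 and -0.36, edgeR without cells near the cut Ezh1 -0.14 and without the plate block Rbbp7 0.22; leaving out 1 plate gave -0.20 to 0.44 for Ezh1, -0.04 to 1.35 for Aebp2 and -0.62 to 0.34 for Rbbp7. For Cd34 cells, Ezh1 was at -1.03 at 50 CPM, Aebp2 at 0.68 without the plate block and 0.01 on thinned cells and Rbbp4 at 0.13 with limma on means; leaving out 1 plate gave -0.10 to 2.16, -1.19 to 0.65 and -0.94 to 0.16 for these 3 genes.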
